A study of Sus scrofa with 5 samples.

Results

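The genes described here bind, make, break down and sense retinoic acid, the active form of vitamin A. They are 8 genes taken by name: the binding proteins *CRABP1* and *CRABP2*, the breakdown enzyme *CYP26A1*, the receptors *RARA*, *RARB* and *RARG*, and the synthesis enzymes *ALDH1A1* and *ALDH1A2*. All 8 were found among the 30029 genes of the single-cell count files and among the 29886 gene symbols of the bulk FPKM table. No measured value was used to choose them, but earlier results on these data were known.

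Pig blastoids are blastocyst-like structures grown from porcine embryonic stem cells (pESCs) in a 3D culture. Day 6 blastoids grown in iBlastoid medium were picked by hand for their cavity and compartments, pooled, dissociated and sequenced as single cells in 2 libraries. Cultured pESCs in 4FIXY medium were sequenced in bulk in 3 libraries. The 2-step blastoid protocol of the paper begins in 4FXY medium, which is 4FIXY without the inhibitor IWR1, and then changes to iBlastoid medium. The single-cell methods do not state which protocol gave the sequenced blastoids. The methods name no retinoic acid among the additives of these media. All of them hold the B27 supplement, whose standard form contains retinyl acetate, a vitamin A ester. According to the methods the pESC lines are parthenogenetic. The name of 1 of the 3 bulk columns begins with IVF, and this difference could not be settled here. Nothing states that the 2 blastoid libraries came from separate cultures, so p-values measure only the spread between these 2 libraries, which may be technical.

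Cells oxidize retinol to retinal and then, through the ALDH1A enzymes, to retinoic acid. Retinoic acid enters the nucleus and binds RAR receptors, which sit on DNA in pairs with RXR receptors and switch target genes such as the anterior *HOX* genes. CRABP proteins carry retinoic acid inside the cell, *CRABP2* toward the receptors and *CRABP1* mainly toward breakdown, and CYP26 enzymes degrade it. In the early embryo, mesoderm is the main source of retinoic acid, and *CRABP1* marks neural crest and parts of the neural plate.

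Cells were the barcodes above an order-of-magnitude limit, which left 7369 cells with at least 11223 UMIs in library 1 and 8175 cells with at least 9807 UMIs in library 2. A UMI stands for 1 captured RNA molecule. The median cell had 29728 UMIs and 6337 genes in library 1, and 27588 UMIs and 6137 genes in library 2, and the libraries shared 9 barcodes. Cells were then sorted by 6 gate genes into groups. A cell belongs to a gate if it has at least 3 UMIs of that gate gene and fewer than 3 of each of the other 5 gate genes. Cells in library 1 and library 2 numbered 806 and 1269 in the *POU5F1* gate, 201 and 306 in the *LHX2* gate, 1140 and 1281 in the *GABRP* gate and 684 and 618 in the *TP63* gate. The *COL3A1* gate held 507 and 409 cells, the *SCRG1* gate 37 and 36, and 1889 and 2196 cells passed no gate. Cells that passed several gates, 28.6% and 25.2% of all, entered no group. Of cells with at least 3 *TP63* UMIs, 66.8% and 66.9% also had at least 3 of *GABRP*. The *TP63* gate thus holds a minority of the cells with *TP63*. Scrublet's own threshold called 2 and 0 doublets, so the cells with the highest scores were taken as doublets up to an assumed rate of 0.8% per 1000 cells, 434 and 535 cells. These made up 13.8% and 16.0% of the cells of several gates and at most 5.33% of any single gate.

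Markers were checked in each gate on the scale of CPM, the UMIs of a gene per 1000000 UMIs of the summed cells. The *LHX2* gate had 310.3 and 344 CPM of *SIX3* and 83.1 and 89.2 CPM of *SIX6*, both genes of the anterior neural plate and eye field, against at most 59.1 CPM and 1.35 CPM in the other groups. The *SCRG1* gate had 101 and 141 CPM of the neural crest factor *SOX10*, which stayed at or below 0.778 CPM elsewhere. In the *COL3A1* gate the summed level of 5 mesenchyme markers was 4340 and 4068 CPM, against 629 and 358 CPM in the *SCRG1* gate. The gate gene itself is 1 of the 5 and gave 1759 and 1565 CPM of that sum, so this check rests in part on the gating. *COL1A2*, which the gate did not use, had 1225 and 1185 CPM there. Of the other pluripotency markers, the *POU5F1* gate had 110 and 166 CPM of *DNMT3B* and 67.2 and 73.9 CPM of *SOX2*. *SOX2* was higher in the *LHX2* gate, at 106 and 128 CPM. *LIN28A* was at 27.6 and 22.8 CPM in the *POU5F1* gate and *NANOG* at 2.67 and 4.34 CPM. *LIN28A* was at similar levels in the *LHX2* gate, 23.3 and 17.8 CPM, and in the *SCRG1* gate, 14.4 and 33.5 CPM. The trophectoderm marker *GATA3* had 138 and 124 CPM in the *POU5F1* gate, beside 151 and 151 CPM in the *GABRP* gate. It was similar in the *TP63* gate, at 125 and 117 CPM, and in the cells of no gate, at 122 and 119 CPM. *CDX2*, another trophectoderm marker, was near 0 in the *POU5F1* gate (0.799 and 0.993 CPM) and the *GABRP* gate (0.495 and 0.968 CPM). Its highest level was in the *COL3A1* gate. These markers thus did not set the *POU5F1* and *GABRP* gates apart as trophectoderm. The surface ectoderm keratins that could be measured were near 0 in the *TP63* gate, with *KRT5* at 0.142 and 0.172 CPM and *KRT15* at 0.567 and 0.286 CPM, while *KRT14* was not analysed here. For this reason all groups are called by their gate gene only. The lowest median depth was 22008 and 19230 UMIs per cell in the *COL3A1* gate and the highest 37895.5 and 34296 in the *POU5F1* gate. The part of this gap in the results below was not tested, but sums are scaled to their own total and shares of cells were taken after every cell was thinned to 9807 UMIs.

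Among the binding proteins, *CRABP1* separated the groups most widely. It lies on chromosome 7 of Sscrofa11.1 (susScr11) from 47602316 to 47608865 on the minus strand, with 4 exons. In the *SCRG1* gate *CRABP1* had 4844 and 3669.6 CPM in library 1 and library 2, and in the *LHX2* gate 3219.8 and 3635 CPM. All other groups were far below, from 18.3 to 125 CPM. Against the mean of the other 6 groups on the log2 scale, *CRABP1* was higher by 5.57 ± 0.12 (SE) in the *SCRG1* gate and by 5.14 ± 0.12 in the *LHX2* gate (edgeR quasi-likelihood test, adjusted p = 4.6e-13 and 3.5e-13). These gates did not differ from each other past the threshold of 0.05, with 0.37 ± 0.19 between them (edgeR, adjusted p = 0.20).

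Below these gates the order of *CRABP1* was no gate, *POU5F1*, *GABRP*, *COL3A1* and *TP63*. The cells of no gate had 74.8 and 125 CPM, and the *POU5F1* gate had 46.8 and 48.8 CPM. That step was 1.1 ± 0.20 on the log2 scale (edgeR, adjusted p = 0.00066). The *POU5F1* gate and the *GABRP* gate, with 37.2 and 35.8 CPM, did not differ past the threshold (edgeR, adjusted p = 0.38), nor did the *GABRP* gate and the *COL3A1* gate, with 35.4 and 22.5 CPM (edgeR, adjusted p = 0.26). The *TP63* gate was lowest at 18.5 and 18.3 CPM. Barcodes with 10 to 100 UMIs, which stand for free RNA in empty droplets, held 281 and 379.7 CPM of *CRABP1*, more than these 5 groups. How much of these low levels was free RNA was not tested. A few cells held many UMIs in most of these groups, and in the *POU5F1* gate 6 and 9 cells with at least 10 UMIs after thinning gave 39.1% and 36.3% of its thinned *CRABP1* UMIs.

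**Figure D1:**
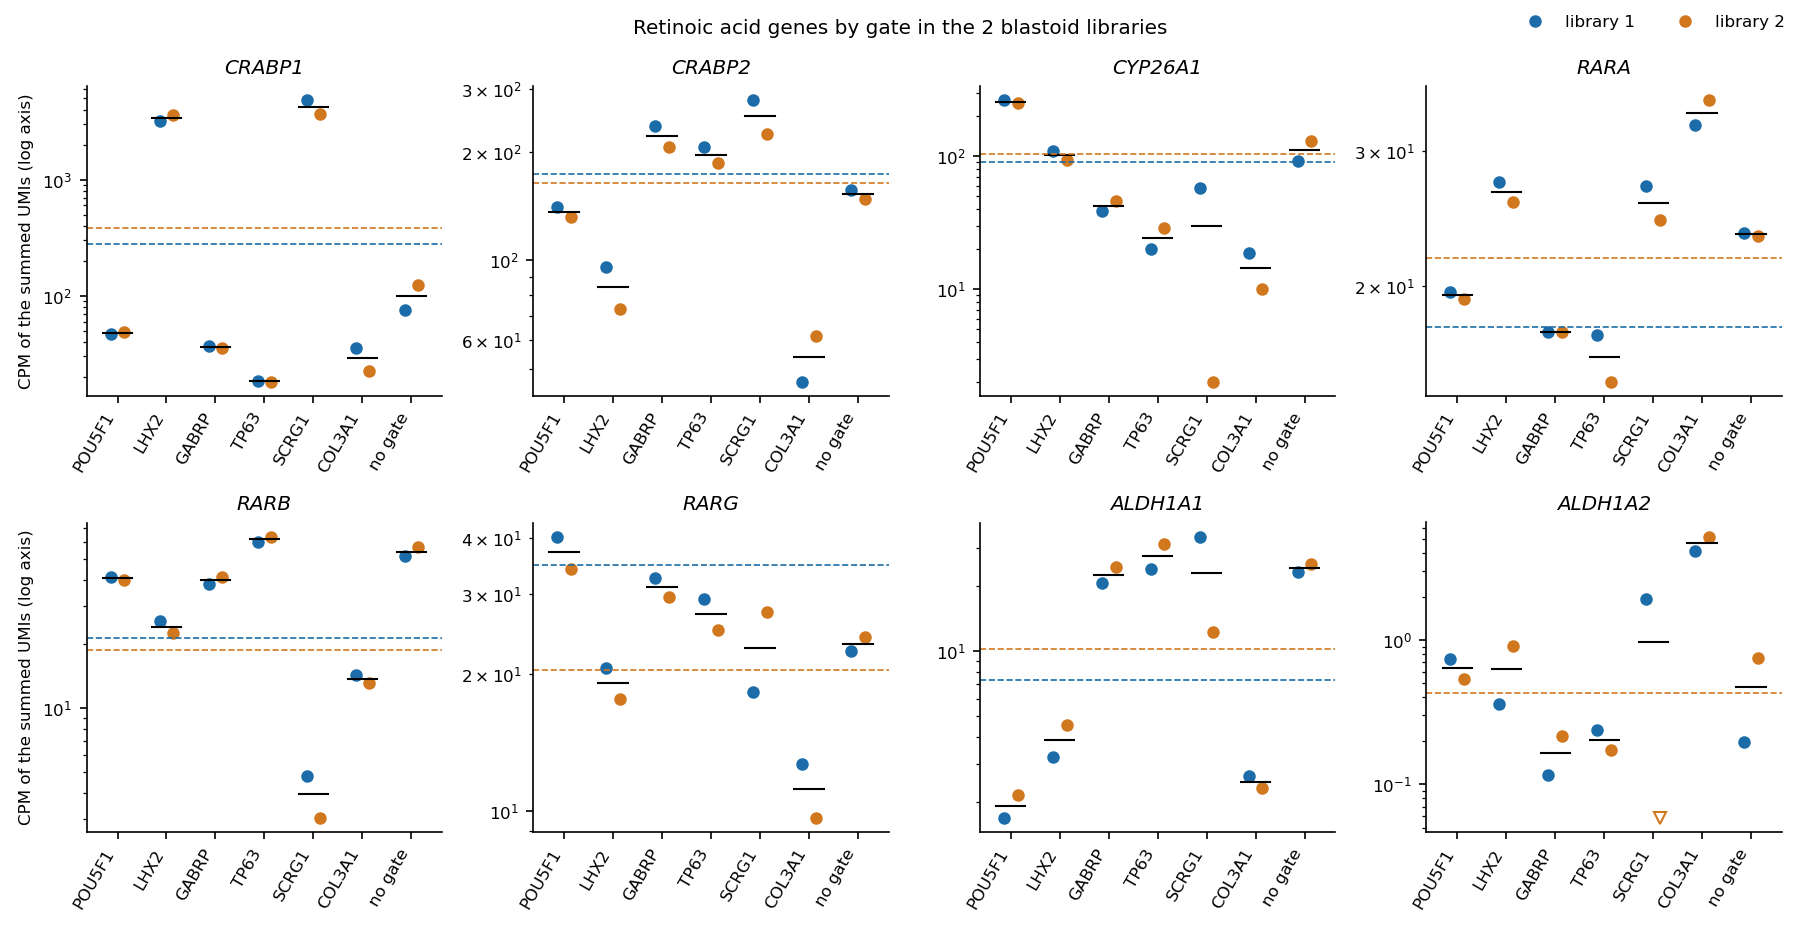
Level of each of the 8 genes in CPM of the summed UMIs (log axis, a different range in each panel) in the 6 gates and in cells of no gate. Points are the 2 blastoid libraries, black bars their mean and dashed lines the level in empty droplets of the same library. The open triangle marks *ALDH1A2* at 0 in the *SCRG1* gate of library 2. *CRABP1* exceeds 3000 CPM in the *LHX2* and *SCRG1* gates and stays at or below 125 CPM elsewhere.

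Within these gates *CRABP1* varied widely from cell to cell. After thinning, 81.1% of the *LHX2* gate cells in library 1 (95% exact binomial interval 75.0 to 86.3%) and 90.5% in library 2 (86.7 to 93.6%) had a *CRABP1* UMI. The median *LHX2* gate cell had 22 and 23.5 thinned UMIs, and the 90th percentile was 108 and 129.5. In the *SCRG1* gate 91.9% and 91.7% of cells had a UMI, with medians of 34 and 28.5. For comparison, 10.1% and 14.1% of *TP63* gate cells had a *CRABP1* UMI at the same thinned depth, in a gate whose level lay below that of empty droplets. Before thinning the median depths were 23540 and 21909.5 UMIs in the *LHX2* gate and 27943 and 24772 in the *TP63* gate, and the shares with a *CRABP1* UMI were 86.6% and 95.8% against 24.9% and 29.6%. Intervals here and below cover counting error only.

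Cells with at least 10 thinned *CRABP1* UMIs numbered 217 in library 1 and 358 in library 2. The *LHX2* gate held 57.6% and 57.5% of them and the *SCRG1* gate 11.98% and 7.26%, although that gate is only 0.502% and 0.440% of all cells. A further 12.9% and 20.7% passed no gate. These 28 and 74 cells gave 67.5% and 70.5% of all *CRABP1* UMIs of the no gate group, so the level of that group comes mostly from 1.48% and 3.37% of its cells.

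**Figure D2:**
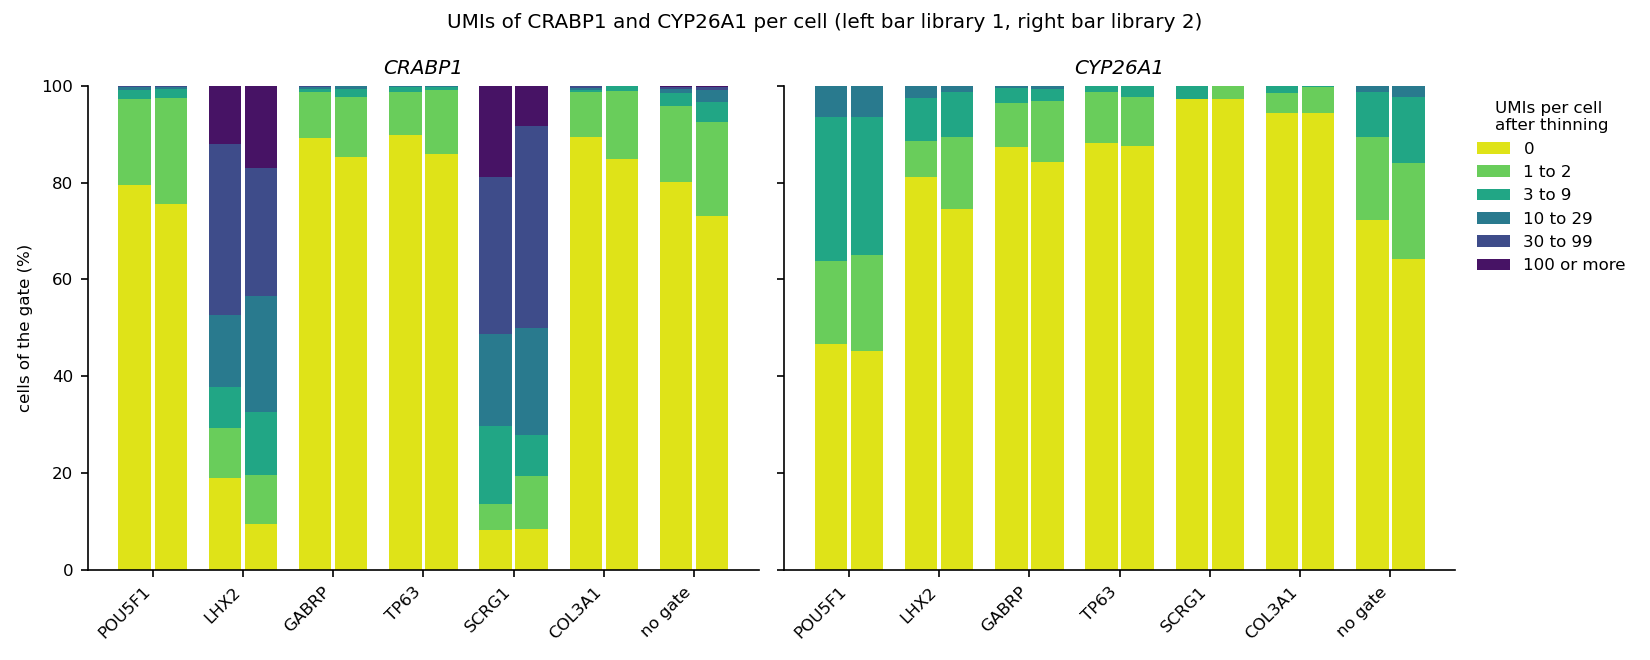
Share of cells (%) of each group by their number of *CRABP1* (left) and *CYP26A1* (right) UMIs after thinning to 9807 UMIs per cell. The left bar of each pair is library 1 and the right bar library 2. Most *LHX2* and *SCRG1* gate cells hold 10 or more *CRABP1* UMIs, and 53.3% and 54.8% of *POU5F1* gate cells hold a *CYP26A1* UMI.

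*CRABP2*, the partner that hands retinoic acid to the receptors, had a flatter profile that did not follow *CRABP1*. It lies on chromosome 4 from 93388198 to 93393861 on the plus strand, with 4 exons. Its level was 279 and 225 CPM in the *SCRG1* gate, 236 and 207 CPM in the *GABRP* gate and 207 and 186 CPM in the *TP63* gate. The cells of no gate had 157 and 148 CPM and the *POU5F1* gate 141 and 132 CPM. The *LHX2* gate, so high in *CRABP1*, was at 95.7 and 73.5 CPM, and the *COL3A1* gate was lowest at 46.0 and 61.6 CPM. Empty droplets were at 174 and 164 CPM, in the middle of this range.

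Against the mean of the other groups *CRABP2* was higher in the *GABRP* gate by 0.94 ± 0.08, in the *SCRG1* gate by 0.89 ± 0.12 and in the *TP63* gate by 0.61 ± 0.08 (edgeR, adjusted p = 2.1e-07, 9.4e-05 and 3.7e-05). It was lower in the *LHX2* gate (-1.03 ± 0.10, edgeR, adjusted p = 1.8e-06) and in the *COL3A1* gate (-1.51 ± 0.10, edgeR, adjusted p = 1.7e-08). The *POU5F1* gate exceeded the *LHX2* gate by 0.83 ± 0.12 (edgeR, adjusted p = 6.1e-05). The fit scales sums with TMM factors, which the CPM given here do not use, so groups of close levels can change order. In the fit *CRABP2* of the *GABRP* gate stood 0.04 ± 0.14 above the *SCRG1* gate (edgeR, adjusted p = 0.86). The *GABRP* gate and the *TP63* gate differed by 0.28 ± 0.11 (edgeR, adjusted p = 0.096), which passed the threshold with the library as a block (adjusted p = 0.014). The same held between no gate and the *POU5F1* gate (edgeR, adjusted p = 0.18, and 0.050 with the block).

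*CYP26A1*, the enzyme that hydroxylates retinoic acid for removal, was highest in the *POU5F1* gate. The gene lies on chromosome 14 from 104561394 to 104567099 on the plus strand, with 2 transcripts of up to 7 exons. The *POU5F1* gate had 264 and 249 CPM, and the next groups, the cells of no gate with 92.2 and 129.8 CPM and the *LHX2* gate with 110.3 and 94.4 CPM, did not overlap with it. The *GABRP* gate had 38.8 and 46.0 CPM, the *TP63* gate 20.0 and 28.7 CPM and the *COL3A1* gate 18.7 and 10.1 CPM. Empty droplets held 90.9 and 103 CPM, about the level of the *LHX2* gate and the cells of no gate. The part of free RNA in the lower groups was not tested, and the *GABRP* gate held 4 and 8 cells with at least 10 thinned UMIs, while the *TP63* and *COL3A1* gates held 0. Against the mean of the other groups the *POU5F1* gate was higher by 2.59 ± 0.18 (edgeR, adjusted p = 3.8e-08), and against the cells of no gate alone by 1.17 ± 0.24 (edgeR, adjusted p = 0.0017).

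The *LHX2* gate and the cells of no gate were also above the mean of the other groups, by 0.88 ± 0.23 and 1.22 ± 0.19 (edgeR, adjusted p = 0.0069 and 0.00035). Both calls were lost with DESeq2 (adjusted p = 0.31 and 0.23), and that of the *LHX2* gate also with a gate of 2 UMIs (edgeR, adjusted p = 0.19). The *LHX2* gate and the cells of no gate did not differ from each other past the threshold (edgeR, adjusted p = 0.42). In the *TP63* gate *CYP26A1* was lower by 1.32 ± 0.26 on the log2 scale (edgeR, adjusted p = 0.0010), a call that was lost with DESeq2 (adjusted p = 0.14) and with a gate of 5 UMIs (edgeR, adjusted p = 0.14).

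In the *SCRG1* gate 1 cell decided the value of *CYP26A1*. The counts were 60 UMIs in library 1 and 2 UMIs in library 2, and 58 of the 60 came from 1 cell. Without that cell library 1 was at 2.03 CPM, as was library 2. The difference from the mean of the other groups then was -4.99 ± 0.79 (edgeR, adjusted p = 0.00036), against -1.07 ± 0.53 with the cell (adjusted p = 0.18). Leaving that cell out also changed the contrasts of the other groups, since the *SCRG1* gate is part of their mean. The *POU5F1* gate then stood at 3.24 ± 0.15 and the *TP63* gate at -0.67 ± 0.41 (edgeR, adjusted p = 1.4e-09 and 0.23).

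Within the *POU5F1* gate *CYP26A1* was present in part of the cells. After thinning, 53.3% of cells in library 1 (49.8 to 56.8%) and 54.8% in library 2 (52.1 to 57.6%) had a UMI, and the 90th percentile was 8 UMIs in both libraries. The shares were 5.52% and 5.62% in the *COL3A1* gate and 2.70% and 2.78% in the *SCRG1* gate, the lowest of the groups. Cells that reached the minimum of *POU5F1* and *LHX2* and of no other gate gene, 45 and 58 in number, had 335 and 336 CPM of *CYP26A1*. Their *CRABP1* level, 363 and 654 CPM, lay between the levels of the *POU5F1* and *LHX2* gates. In each library 1 cell held 36.2% and 14.7% of these *CRABP1* UMIs.

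Cells of the *LHX2* gate with much *CRABP1* seldom held *CYP26A1*. Of cells with 1 to 2 thinned *CRABP1* UMIs, 61.9% in library 1 (21 cells) and 61.3% in library 2 (31 cells) had a *CYP26A1* UMI. The share was 29.4% and 47.5% at 3 to 9 *CRABP1* UMIs (17 cells in library 1), 6.67% and 20.5% at 10 to 29, 7.04% and 8.64% at 30 to 99, and 4.17% and 3.85% at 100 or more. The cells with no *CRABP1* UMI did not continue this course, with 31.6% and 55.2%. Thinned *LHX2* itself was higher where *CRABP1* was higher, from a mean of 2.05 and 2.48 UMIs per cell at no *CRABP1* UMI to 6.08 and 5.52 at 100 or more. *POU5F1*, the gate gene of the cells with most *CYP26A1*, also had fewer cells with a UMI at high *CRABP1*. Its share in library 1 was 13.2% at no *CRABP1* UMI and 4.17% at 100 or more. In library 2 it was 17.2% at none, 29.03% at 1 to 2, 35% at 3 to 9 and 7.69% at 100 or more. The part of *POU5F1* expressing cells in the course of *CYP26A1* was not tested. In the *POU5F1* gate, where most cells had no *CRABP1* UMI and the part of free RNA was not tested, 67.9% and 65.2% of cells with a *CRABP1* UMI had a *CYP26A1* UMI, against 49.6% and 51.5% of cells without. These are counts of cells within 2 libraries and were not tested.

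**Figure D3:**
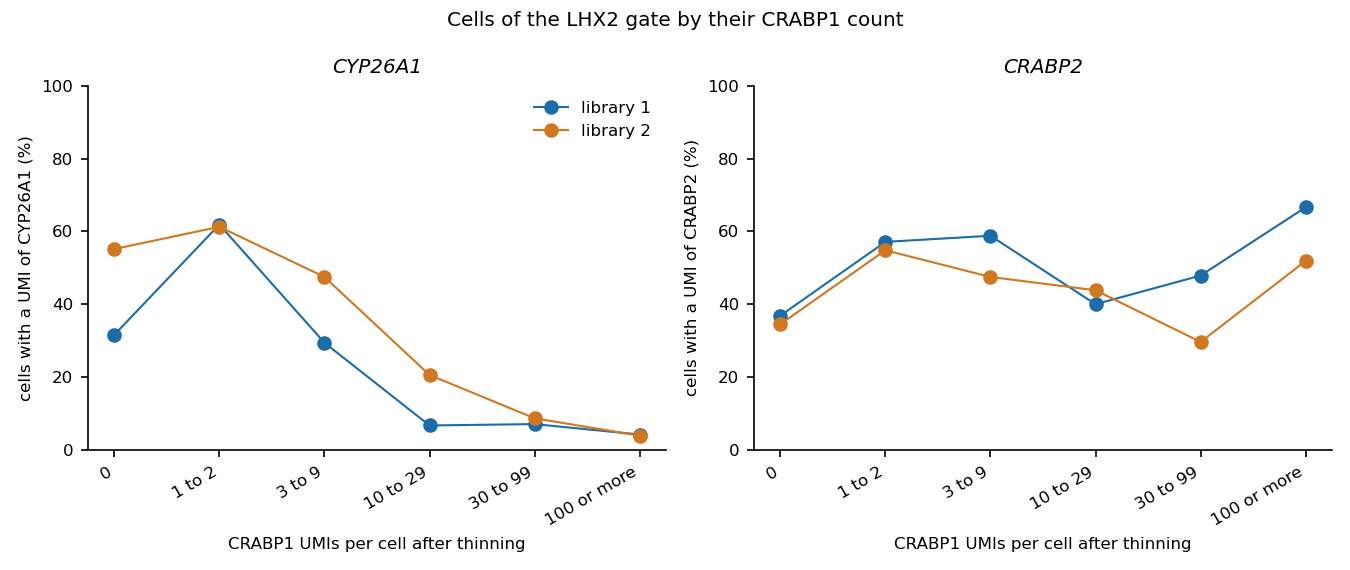
Cells of the *LHX2* gate grouped by their *CRABP1* UMIs after thinning (horizontal axis), with the share (%) that had a UMI of *CYP26A1* (left) or *CRABP2* (right) on the vertical axis, as 1 line per library. *CYP26A1* is in over 60% of cells with 1 to 2 *CRABP1* UMIs and in under 5% of cells with 100 or more. *CRABP2* lies between 29.6% and 66.7% and shows no such course.

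The 3 receptors had different profiles. *RARA*, on chromosome 12 from 22047449 to 22085759 on the minus strand, was highest in the *COL3A1* gate at 32.4 and 34.9 CPM. The *LHX2* gate had 27.3 and 25.7 CPM, the *SCRG1* gate 27.0 and 24.4 CPM and the cells of no gate 23.4 and 23.2 CPM, and these did not differ past the threshold (edgeR, adjusted p of the steps = 0.97 and 0.93). The *POU5F1* gate at 19.6 and 19.2 CPM, the *GABRP* gate at 17.4 and 17.4 CPM and the *TP63* gate at 17.3 and 15.0 CPM were lowest. The step between the *GABRP* and *TP63* gates missed the threshold (edgeR, adjusted p = 0.080) and passed it with the library as a block (adjusted p = 0.033). Empty droplets had 17.7 and 21.8 CPM, close to these last 3. The *COL3A1* gate was above the mean of the other groups by 0.79 ± 0.07 (edgeR, adjusted p = 1.1e-07) and above the *LHX2* gate by 0.60 ± 0.09 (edgeR, adjusted p = 6.9e-05).

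*RARB*, which retinoic acid itself is known to induce in many cells, ran the other way. It lies on chromosome 13 from 12336387 to 12507688 on the plus strand. The *TP63* gate had 60.1 and 63.7 CPM and the cells of no gate 51.8 and 56.6 CPM, a step of 0.21 ± 0.07 that missed the threshold (edgeR, adjusted p = 0.081) and passed it with the library as a block (adjusted p = 0.014). The *POU5F1* gate had 41.2 and 39.9 CPM and the *GABRP* gate 38.2 and 41.4 CPM, which did not differ past the threshold (edgeR, adjusted p = 0.17). The *LHX2* gate followed at 25.7 and 22.6 CPM and the *COL3A1* gate at 14.3 and 13.1 CPM. The *SCRG1* gate was lowest, with 5 and 3 UMIs in all, or 4.82 and 3.05 CPM. Empty droplets had 21.3 and 18.8 CPM, above the *COL3A1* and *SCRG1* gates.

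*RARB* exceeded the mean of the other groups in the *TP63* gate by 1.52 ± 0.07, in the cells of no gate by 1.28 ± 0.07, in the *GABRP* gate by 0.90 ± 0.08 and in the *POU5F1* gate by 0.75 ± 0.08 (edgeR, adjusted p = 1.6e-09, 4.2e-08, 3.6e-07 and 3.5e-06). In the *SCRG1* gate it was lower by 3.25 ± 0.29 and in the *COL3A1* gate by 0.92 ± 0.14 on the log2 scale (edgeR, adjusted p = 1.9e-06 and 4.8e-05). The *SCRG1* and *LHX2* gates, alike in *CRABP1*, thus differed in *RARB* by 2.54 ± 0.34 (edgeR, adjusted p = 9.6e-05).

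*RARG*, a receptor known for its early embryonic expression, is carried on chromosome 5 from 18436267 to 18458625 on the minus strand and is listed as a non-coding gene in the annotation used here. The *POU5F1* gate had 40.2 and 34.1 CPM and the *GABRP* gate 32.6 and 29.6 CPM, with no difference past the threshold (edgeR, adjusted p = 0.48). The *TP63* gate had 29.3 and 25.0 CPM, the cells of no gate 22.5 and 24.2 CPM, the *SCRG1* gate 18.3 and 27.4 CPM from 19 and 27 UMIs, and the *LHX2* gate 20.7 and 17.6 CPM. The *COL3A1* gate was lowest at 12.7 and 9.63 CPM, below the *LHX2* gate by 0.49 ± 0.17 on the log2 scale (edgeR, adjusted p = 0.032). With the library as a block the step from the *GABRP* gate to the *TP63* gate passed the threshold (edgeR, adjusted p = 0.085, and 0.018 with the block), and that from the *GABRP* gate to the *SCRG1* gate no longer did (0.047, and 0.052 with the block). Empty droplets had 34.8 and 20.5 CPM, which in library 1 lay between the *POU5F1* and *GABRP* gates and in library 2 between the cells of no gate and the *LHX2* gate. Against the mean of the other groups *RARG* was higher by 0.77 ± 0.09 in the *POU5F1* gate and by 0.65 ± 0.09 in the *GABRP* gate (edgeR, adjusted p = 6.4e-06 and 3.3e-05), and lower in the *COL3A1* gate (-1.09 ± 0.13, edgeR, adjusted p = 6.5e-06).

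Retinoic acid receptors bind paired half-sites on DNA, and direct repeats with 5 bases between the half-sites are the type first described in the *RARB* promoter of other mammals. The half-sites searched were AGGTCA, then AGTTCA, then GGTTCA and also GGGTCA, 2 in the same direction with 5 or 2 bases between, on both strands. No match lay within 250 bases before to 50 bases after the annotated start of any of the 8 genes. Windows were set on the outermost start of each gene only. Inner starts of other transcripts had no window of their own, so their promoters were not searched as such. Of 28223 such windows over all genes, 15 (0.0531%) held a repeat with 5 bases between and 17 (0.0602%) one with 2. In a wider window of 3000 bases before to 1500 after, chosen after the narrow one gave nothing, *RARB* held 1 repeat and *CYP26A1* 2, all with 5 bases between, as did 355 of 28222 windows (1.26%). The lines below give each with 6 bases on either side from Sscrofa11.1, plus strand, 5′ to 3′, with the half-sites in capitals. They are shown because these genes are the receptor and the enzyme best known to respond to retinoic acid. The *RARB* match at chr13:12336544-12336572 is in an intron, 163 bases downstream of the annotated gene start. The first *CYP26A1* match, at chr14:104560318-104560346, is upstream of the gene, at position -1070 from its start, and its half-sites read on the minus strand. The second, at chr14:104561674-104561702, is in an exon of 1 of the 2 transcripts, before its coding start and 286 bases downstream of the gene start. The other *CYP26A1* transcript starts further downstream, and this match is at position -1914 from that start. That inner start lay outside both windows. These are matches of letters and no binding was measured.
RARB intron: gggaagGGTTCAcggaaAGTTCActcgca
CYP26A1 upstream: ctgagtTGACCCcttagTGAACCagaagg
CYP26A1 exon: ctgcagGGGTCAcaggcGGGTCAggccgg

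The synthesis enzymes marked different groups. *ALDH1A1*, which oxidizes retinal among other aldehydes, lies on chromosome 1 from 226163347 to 226217342 on the minus strand, with 13 exons. It had 23.9 and 31.2 CPM in the *TP63* gate, 23.1 and 25.2 CPM in the cells of no gate and 20.5 and 24.4 CPM in the *GABRP* gate. The *SCRG1* gate had 33.7 and 12.2 CPM from 35 and 12 UMIs, so its libraries span this range. Below them stood the *LHX2* gate at 3.23 and 4.54 CPM, the *COL3A1* gate at 2.64 and 2.32 CPM and the *POU5F1* gate at 1.69 and 2.16 CPM, with no overlap and with empty droplets at 7.32 and 10.2 CPM in between. The step from the *GABRP* gate to the *LHX2* gate was 2.78 ± 0.27 (edgeR, adjusted p = 7.5e-07). No step between neighbours among the upper 4 groups (edgeR, adjusted p = 0.48 to 0.77) or among the lower 3 (0.28 to 0.45) passed the threshold. The ends of the lower 3, the *POU5F1* and *LHX2* gates, differed by -0.89 ± 0.37 (edgeR, adjusted p = 0.062), which passed it with the library as a block (adjusted p = 0.034).

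Few cells carried *ALDH1A1*. After thinning, 15.4% and 16.0% of *TP63* gate cells had a UMI, against 1.12% and 1.81% in the *POU5F1* gate. Against the mean of the other groups the *TP63* gate was higher by 1.82 ± 0.14, and the *POU5F1* gate was lower (-2.68 ± 0.21, edgeR, adjusted p = 2.1e-07 and 1.4e-07). The call of the *SCRG1* gate, 1.40 ± 0.36 (edgeR, adjusted p = 0.012), was lost where cells of several gates were assigned to 1 of them (adjusted p = 0.16).

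*ALDH1A2*, the main retinoic acid making enzyme of embryonic mesoderm, was sparse everywhere. It lies on chromosome 1 from 113932722 to 114037059 on the plus strand, with 3 transcripts. The count files hold 154 and 180 UMIs of it over all cells. The *COL3A1* gate had 52 and 45 of these, or 4.16 and 5.22 CPM, while the sums of the other groups lay between 0 and 1.93 CPM. In the cells of no gate of library 2, 28 of 44 UMIs came from 1 cell, and without it the level there was 0.273 CPM in place of 0.750. Empty droplets had 0 and 0.427 CPM. The *COL3A1* gate was above the mean of the other groups by 3.51 ± 0.39 (edgeR, adjusted p = 3.0e-06) and above the *POU5F1* gate by 3.0 ± 0.48 (edgeR, adjusted p = 8.6e-05). The *SCRG1* gate, next by mean CPM with 2 and 0 UMIs, did not differ from the *COL3A1* gate past the threshold (-2.42 ± 1.09, edgeR, adjusted p = 0.15). Even so only 2.56% (1.37 to 4.34%) and 3.42% (1.88 to 5.68%) of *COL3A1* gate cells had a UMI after thinning. The *GABRP* gate, with 4 and 8 UMIs, was lower than the mean of the others (-2.0 ± 0.64, edgeR, adjusted p = 0.020). That difference was smaller without library 1. The *TP63* gate missed the threshold (-1.78 ± 0.70, edgeR, adjusted p = 0.062) and passed it with the library as a block (adjusted p = 0.049).

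**Figure D4:**
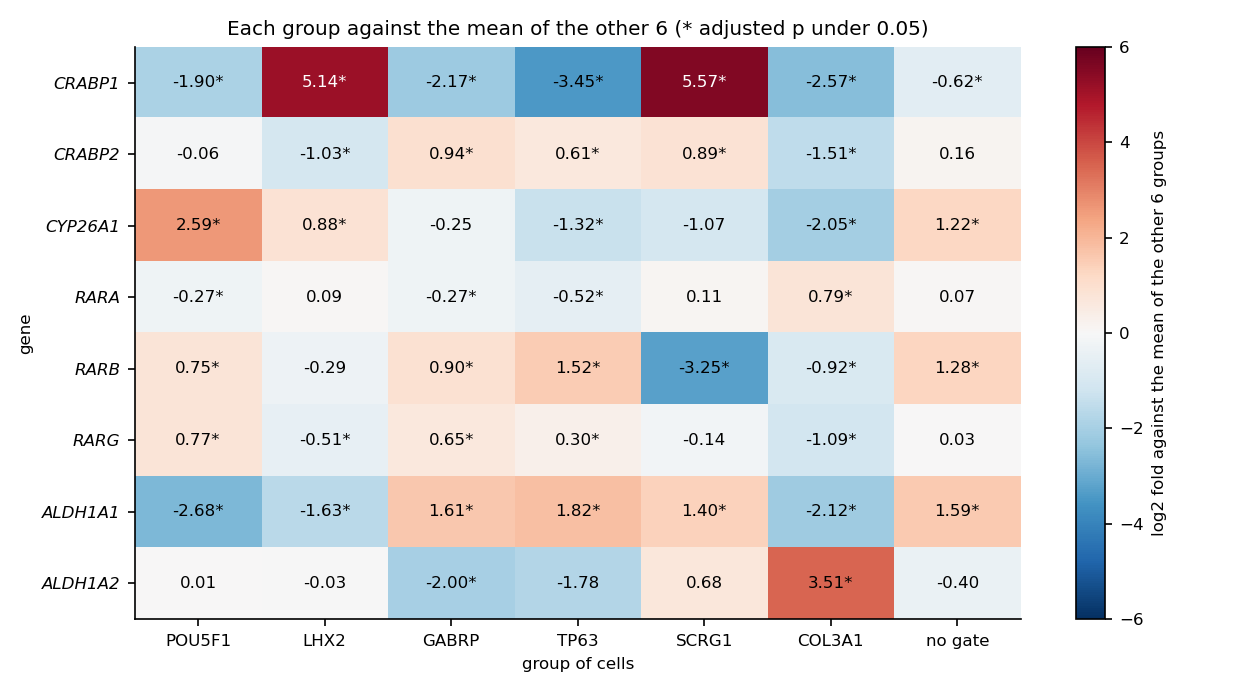
Log2 fold (color and number) of each gene in each group against the mean of the other 6 groups, from the edgeR fit of 14 sums. An asterisk marks an adjusted p under 0.05. In the row of *CRABP1* the other groups are all negative because the *LHX2* and *SCRG1* gates, at 5.14 and 5.57, raise the mean they are set against.

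Across all gates 41 of the 56 comparisons of a gene with the mean of the other groups passed the threshold, which must be read against how often any gene did. In the *POU5F1* gate 3 genes were higher and 3 lower, where 24.7% and 19.5% of the 17816 genes tested were higher and lower. In the *LHX2* gate it was 2 and 3 (20.2% and 19% of all genes), in the *GABRP* gate 4 and 3 (24.8% and 18.2%) and in the *TP63* gate 4 and 3 (19.9% and 16%). The *SCRG1* gate had 3 higher and 1 lower (8.82% and 11.4%), and DESeq2 turned the split over all genes from 1572 higher and 2037 lower to 2096 and 1757. In the cells of no gate 3 were higher and 1 lower (12.5% and 7.16%). In the *COL3A1* gate most were lower, with 6 of 8 lower, 2 higher (20.7% and 26.9%) and a median of -1.30, where the median of all genes was 0.04. The 2 that were higher there were *RARA* and *ALDH1A2*.

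Taken in either direction, the shares of all genes called were 44.2%, 39.1%, 43%, 35.9%, 20.3%, 47.6% and 19.6% in the *POU5F1*, *LHX2*, *GABRP*, *TP63*, *SCRG1* and *COL3A1* gates and the cells of no gate. For the steps between groups the shares of all genes called ran from 13.7% to 55%. Against the *POU5F1* gate they were 43.9% in the *LHX2* gate, 46.5% in the *GABRP* gate, 42.4% in the *TP63* gate, 23.6% in the *SCRG1* gate, 55% in the *COL3A1* gate and 32.7% in the cells of no gate. Against the *LHX2* gate they were 48.2% in the *GABRP* gate, 41.1% in the *TP63* gate, 20.2% in the *SCRG1* gate, 44.7% in the *COL3A1* gate and 37.3% in the cells of no gate. The *GABRP* gate differed from the *TP63*, *SCRG1* and *COL3A1* gates and from the cells of no gate in 15.9%, 30.7%, 51.6% and 22.7% of genes. The *TP63* gate differed from the *SCRG1* and *COL3A1* gates and from the cells of no gate in 27.6%, 49.4% and 13.7%. Between the *SCRG1* and *COL3A1* gates it was 20.1%, and these differed from the cells of no gate in 22.3% and 47.8%.

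The wider pathway was read from a list of 38 further genes, of which 31 could be tested. Uptake and storage genes were highest in the *LHX2* gate. *STRA6*, the cell surface channel for retinol, had 20.3 and 31.0 CPM there, above all other sums, which ended at 16.2 CPM in the *SCRG1* gate of library 2. It was higher than in the mean of the others by 4.4 ± 0.33 (edgeR, adjusted p = 1.1e-07). *LRAT*, which esterifies retinol for storage, had 36.8 and 32.02 CPM in the *LHX2* gate and 15.7 and 17.3 CPM in the *POU5F1* gate, by 2.76 ± 0.13 and 1.69 ± 0.12 above the mean of the others (edgeR, adjusted p = 8.8e-10 and 5.2e-08). *DHRS3*, which turns retinal back into retinol, was lower in the *LHX2* gate at 6.64 and 4.02 CPM (-1.98 ± 0.22, edgeR, adjusted p = 4.8e-06), with 32.8 and 29.1 CPM in the *GABRP* gate. *FABP5*, which can also carry retinoic acid, was highest in the *SCRG1* gate at 411 and 458 CPM and lowest in the *COL3A1* gate at 29.4 and 30.5 CPM.

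*RDH10* and *HOXB2* were highest in the *COL3A1* gate, the gate with the highest level of *ALDH1A2*. *RDH10*, which makes retinal from retinol, had 39.6 and 46.3 CPM there, with a log2 difference of 1.70 ± 0.08 from the mean of the others (edgeR, adjusted p = 2.5e-10). *HOXB2*, an anterior *HOX* gene, had 100.5 and 107 CPM, while all other sums were at or below 4.66 CPM (6.41 ± 0.18, edgeR, adjusted p = 9.0e-13). *RARB*, which also responds to retinoic acid, was low in this gate, as given above. *CYP26A1*, another gene known to respond, was lower there too (-2.05 ± 0.31, edgeR, adjusted p = 6.2e-05), as was *STRA8* (-1.76 ± 0.63, edgeR, adjusted p = 0.042). Over the list, 14 genes were higher and 10 lower in the *COL3A1* gate (26.9% and 20.7% of all genes tested), with a median of 0.08 beside 0.04 over all genes.

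In the other groups the counts over the list of 31 were 8 higher and 6 lower in the *LHX2* gate (20.2% and 19% of all genes tested), 5 and 12 in the *POU5F1* gate (24.7% and 19.5%) and 13 and 6 in the *GABRP* gate (24.8% and 18.2%). They were 11 and 10 in the *TP63* gate (19.9% and 16%), 6 and 7 in the *SCRG1* gate (8.82% and 11.4%) and 8 and 4 in the cells of no gate (12.5% and 7.16%). *MEIS1*, a homeobox gene that responds to retinoic acid, was highest in the *TP63* gate at 306 and 299 CPM and lowest in the *SCRG1* gate at 13.5 and 9.14 CPM (1.96 ± 0.05 and -3.71 ± 0.16, edgeR, adjusted p = 6.0e-12 and 1.1e-09). The receptor partner *RXRG* was highest in the *SCRG1* gate at 7.70 and 8.12 CPM, from 8 UMIs in each library. The nuclear corepressor *NRIP1* was lower in the *POU5F1* gate at 32.5 and 33.5 CPM (-1.78 ± 0.08, edgeR, adjusted p = 5.5e-10). *TTR*, higher in the cells of no gate (edgeR, adjusted p = 0.00022), rests on 1 cell per library that held 76.6% and 69.6% of its 47 and 102 UMIs. The breakdown genes *CYP26B1* and *CYP26C1* were not analysed here.

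The genes whose pattern over the 14 sums was most like that of *CRABP1* were *PAX3*, *ZBTB16* and *FABP7*, with Pearson correlations of log2(CPM + 1) of 0.979, 0.973 and 0.967. *PAX3*, a factor of the dorsal neural tube and neural crest, averaged 87.2 CPM in the *LHX2* gate and 189 CPM in the *SCRG1* gate. For *RARB* they were *CBS*, *NETO1* and *GALNT3* at 0.986, 0.985 and 0.982, and for *RARA* *GUCY1A3*, *LOC100516295* and *FGFRL1* at 0.973, 0.964 and 0.962. Those of *CYP26A1* were *LOC100739552*, *PDE12* and *GNAO1* at 0.959, 0.949 and 0.942. *CRABP2* was closest to *ZER1*, *KCNK5* and *GK5* (0.938, 0.934 and 0.930), *RARG* to *SDC4*, *MFSD6L* and *WDR72* (0.943, 0.936 and 0.935) and *ALDH1A1* to *RPL30*, *ANGPTL4* and *DAPP1* (0.903, 0.902 and 0.898). The 14 sums share 2 libraries and 7 groups, so these values describe likeness only.

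In pESCs, before blastoid culture, 5 of the 8 genes were above 1 FPKM, fragments counted per kilobase of transcript and scaled to the mapped total. FPKM is scaled by length, so genes can be ranked on it. For *CRABP2*, the highest, the column IVFP25 gave 209.9 FPKM, the column PA_4P7 193 FPKM and the column PAP25 167 FPKM (189.9 ± 21.4 FPKM, SD, n = 3), at the 98.4th percentile of genes above 0. *CYP26A1* followed with 42.5, 31.4 and 99.3 FPKM (57.7 ± 36.4), and *RARG* with 30.0, 25.2 and 22.2 FPKM (25.8 ± 3.9). *CYP26A1* had the widest spread of these 5, and PAP25 was 3.16 times as high as PA_4P7. For genes of at least 1 FPKM the median coefficient of variation over the libraries was 13.8%, against 63.1% for *CYP26A1* and 38.7% for *RARA*.

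*CRABP1* was modest in pESCs at 6.19, 6.02 and 5.15 FPKM (5.79 ± 0.56), and *RARA* had 4.01, 3.44 and 6.90 FPKM (4.78 ± 1.85). Below 1 FPKM were *RARB* with 0.257, 0.186 and 0.633 FPKM, *ALDH1A1* with 0.118, 0.188 and 0.265 FPKM and *ALDH1A2* with 0.230, 0.256 and 0.203 FPKM. The ranges of *ALDH1A1*, *ALDH1A2* and *RARB* overlapped, so their order is not set. Read depth is unknown for these libraries. According to the methods the pESCs grew on mouse feeder cells, and no removal of feeder cells or their reads is described. The part of feeder RNA in these values was not tested. A bulk value cannot tell fewer cells with the RNA from less RNA per cell. FPKM in pESCs and CPM in blastoids were normalized separately and are given side by side only.

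**Figure D5:**
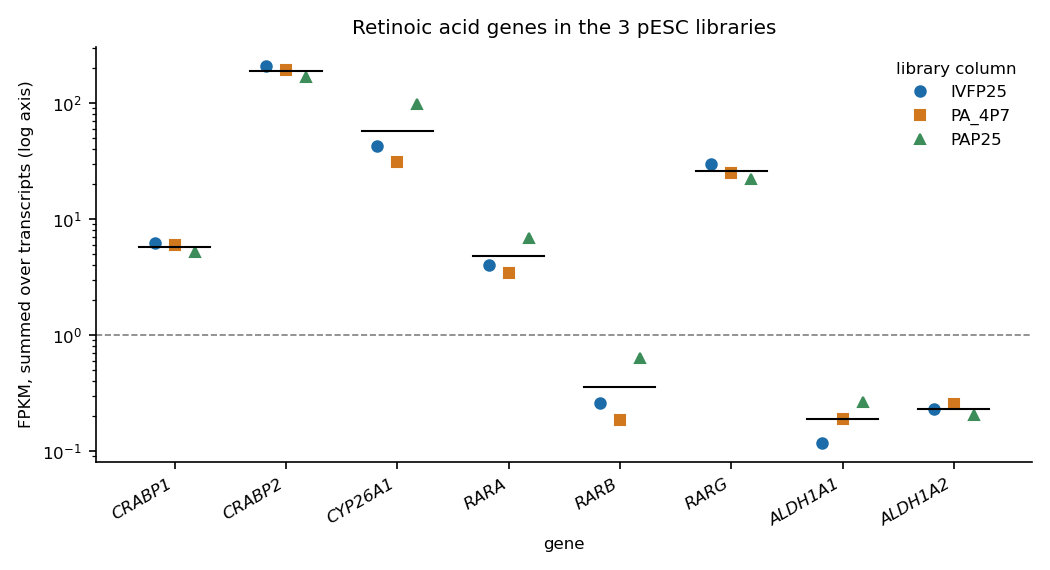
FPKM of the 8 genes, summed over the transcripts of a symbol (log axis), in the 3 pESC library columns (symbols) with their mean (black bar). The dashed line is 1 FPKM. *CRABP2*, *CYP26A1*, *RARG*, *CRABP1* and *RARA* lie above it in every library, while *RARB*, *ALDH1A1* and *ALDH1A2* lie below it.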

How the data were processed

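Measured were 2 scRNA-seq libraries of day 6 blastoids and 3 bulk RNA-seq libraries of pESCs. The single-cell values are raw UMI counts of every barcode, which the authors made with Cell Ranger 7.1.0 on susScr11. The bulk values are FPKM per RefSeq transcript, which the authors made with Trim Galore 0.6.4, HISAT2 2.2.1 and StringTie 2.2.1, and were added up here per gene symbol.

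Cells were called by the order-of-magnitude rule with an estimated number of cells. A fixed number of 3000 expected cells had been planned and gave other limits, so this departs from the plan. Gated counts were summed per library into 14 sums, filtered with filterByExpr, scaled with TMM factors and compared in edgeR 4.0.16 (glmQLFit, glmQLFTest), with Benjamini-Hochberg adjustment over 17816 genes. Counts were simulated for the *LHX2* gate at a single dispersion of 0.00427. In them 98 of 100 genes changed 2-fold and 100 of 100 changed 4-fold were recovered, with 9 false calls among 16892 unchanged genes. In the measured data far more genes, 6972 of 17816, were called in this gate. Recovery and false calls were not tested at the dispersion and counts of the genes described here. Sums of 1 library share its preparation and are paired by it. Their deviations correlated at -0.0014 to 0.254 over 21 pairs, with a median of 0.0997. The genes, lists and gates were chosen with earlier results of these data known. Of the other pathway genes, the text names from the 2 with the largest increase and the 2 with the largest decrease per group among those past the threshold with the same sign in both libraries, and *DHRS3*, and *RDH10* and *STRA8* in the *COL3A1* gate, chosen after their values were seen. Some genes that this rule names are not reported here. Genes most alike were sought for members with at least 20 CPM in some group.

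Alternatives used RLE factors, DESeq2 1.42.0, no filter on low counts, the library as a block, gates of 2 UMIs, 5 UMIs or 1 UMI per 10000, other handling of cells of several gates, doublets removed (434 and 535 cells, the highest Scrublet scores in scanpy 1.11.5 at the assumed rate), low quality cells removed (181 and 202), thinned cells, and each library alone. Sequences and coordinates come from the RefSeq annotation of Sscrofa11.1.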

Additional observations from a re-analysis of the deposited data

How the results depend on the processing

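Of the 56 comparisons of a gene with the mean of the other groups, 41 passed the threshold, and 35 passed it under all 12 other tested settings too. The number that passed ranged from 39 with DESeq2 to 44 with no filter on low counts, and was 42 with the library as a replicate block. Block and no block differed for 1 of these comparisons, *ALDH1A2* in the *TP63* gate, and for the steps between groups named in the report. The pathway list gave 120 calls, 116 with DESeq2 and 128 with the replicate block. *CYP26A1* in the *GABRP* gate, not called, changed sign from -0.25 to 0.30 with a gate of 2 UMIs, to 0.15 with 1 UMI per 10000 and to 0.40 without the cells that hold most UMIs of a gene, an alternative chosen after seeing the data. The cause was not tested. Thinned cells gave 2061 calls over all genes in the *SCRG1* gate in place of 3609, with fewer UMIs per sum. The wider window gave 2 genes with a repeat in place of 0. Leaving out 1 blastoid library leaves no residual degrees of freedom, so only values were computed. Of 47 comparisons called under some setting, 10 moved by more than the spread between the libraries without library 1 and 5 without library 2. The values of 1 library alone were differences of log2 CPM and did not come from the edgeR fit. With 2 libraries such a move shows only that the full fit lies off their midpoint. These counts therefore do not measure dependence on a library. Called values that shifted by over 1.5 times in fold without library 1 were *CYP26A1* in the *POU5F1* gate (3.21), the *TP63* gate (-0.36) and the cells of no gate (2.14), and *ALDH1A2* in the *GABRP* gate (-0.97). *ALDH1A1* in the *SCRG1* gate was 0.39 without library 1 and 2.01 without library 2. The members above 1 FPKM in pESCs stayed at 5 under each alternative, 5 to 5 without 1 library. The *SCRG1* gate is limited by its 37 and 36 cells, and *ALDH1A2* by its 154 and 180 UMIs.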
